A study of Mus musculus with 3 samples.

Results

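The nuclear genome encodes most subunits of the respiratory chain, and 88 of the 14656 genes present in both deposited count tables carried the symbol of such a gene or of a closely named assembly factor. They were chosen by symbol alone, as the genes that begin with Ndufa, Ndufb, Ndufc, Ndufs or Ndufv, the 4 Sdh genes, and the genes that begin with Uqcr, with Cox and a digit from 4 to 8, or with Atp5. The symbols cover 7 core and 29 accessory subunits of complex I, 7 complex I assembly factors, 4 subunits of complex II, 8 of complex III, 16 genes of complex IV with its isoforms, 15 of complex V, and Atp5s and Atp5sl, which carry the name of ATP synthase but are not subunits of it. The symbol rule uses no measured value, but the set was chosen with earlier results of these data known. The mt- genes, the 13 protein-coding genes of mitochondrial DNA, served as the comparison.

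The RNA came from single cells of dorsal skin epithelium of wild-type C57BL/6JOlaHsd mouse embryos at embryonic day E14.5, when the first hair follicles begin as placodes, local thickenings of the epidermis. All groups were wild type and untreated, and each library pooled the epithelial sheets of 3 to 4 littermates. There was 1 library of total epithelium and there were 2 libraries of cells sorted for MAdCAM-1, a surface adhesion molecule that marks placode cells, called here the placode-enriched libraries 1 and 2. Reads were counted as unique molecular identifiers (UMIs), one per captured RNA molecule at its 3' end, so levels are UMIs per 1000000 UMIs (CPM) with no division by gene length.

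After removal of called doublets the libraries held 1590, 1507 and 1567 cells, with a median of 21975, 21642 and 23419 UMIs over the deposited cells. Cells were clustered without the respiratory chain genes, and 14 of the 15 clusters could be named from marker genes. Placode-like cells numbered 108, 575 and 623 in the total epithelium and the placode-enriched libraries 1 and 2, placode edge-like cells 88, 593 and 596, basal-like cells 1039, 245 and 235, and suprabasal-like cells 329, 59 and 66. The 9 placode markers summed to 1511 CPM in placode cells against 546 in edge, 282 in basal and 81 in suprabasal cells. The sums of the 7 basal and 8 suprabasal markers were likewise highest in the class they named, but the same markers named the clusters. Trp63 was higher in edge than in basal cells in each library. The 6 edge markers reached 2096 CPM in edge cells and 2499 ± 1655 CPM (SD, n = 3) in suprabasal cells, so the edge class rests on Sostdc1 as well. Of the 6, Fst was highest in basal cells, at 135, 90.9 and 93.9 CPM against 44.9, 56.9 and 61.8 in edge cells. Lhx2 was highest in placode cells, and Krt17 and Sox9 were higher in suprabasal than in edge cells in both placode-enriched libraries. The classes were filled by different clusters in the different libraries: 85.3% and 92.8% of basal cells in the placode-enriched libraries belonged to a cluster led by mitotic genes such as Cenpf and Hmmr, against 1.54% in the total epithelium library, and 62.0% of the placode cells of the total epithelium library belonged to 1 cluster that held 19.6% and 16.1% in the others. Basal cells of the placode-enriched libraries were also deeper, with medians of 32564 and 33919 UMIs against 20657 and 21625 in placode cells, whereas in the total epithelium library both medians were alike (21888 and 21808). Pairs of libraries shared at most 2 cell barcodes.

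Electrons from NADH enter the chain at complex I and those from succinate at complex II, pass through complex III and cytochrome c, and reach oxygen at complex IV, while complex V uses the proton gradient to make ATP. Complexes I, III, IV and V are built from subunits of both genomes, and complex II from nuclear-encoded subunits alone. The nuclear subunits are transcribed from scattered promoters, many of which are known targets of the factors NRF1, GABP (an ETS family factor) and YY1. Epidermal cells are born in the basal layer, anchored to the basement membrane, and move into the suprabasal layers as they differentiate.

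Of the 88 genes, 74 had a RefSeq promoter window (GRCm38.p6, 250 bases before to 50 after a start), and 27 of these held an exact match, on either strand, to at least 1 of 3 motifs (36.5%, against 11.5% of all 27025 genes in the table and 26.0% of 4547 genes tested between placode and basal cells). The palindromic NRF1 motif, spelled by the capitals of the Uqcrc1 and Ndufaf5 windows, occurred in the windows of 7 genes (9.46%, against 1.07% and 2.64% of the same genes). The YY1 motif, spelled by the capitals of the Ndufs7 window, occurred in 6 (8.11%, against 0.995% and 2.84%). The ETS motif CCGGAAG occurred in 17 (23.0%, against 9.93% and 21.8%), so its share was near that of the tested genes. A match of letters is a description and does not show that a factor binds. The 4 windows printed here belong to genes of 4 groups whose levels carried some of the largest differences described below, written along the gene's strand with the motif, or its reverse complement, in capitals.
Uqcrc1, complex III, NRF1 motif, chr9:108936398-108936697, plus strand: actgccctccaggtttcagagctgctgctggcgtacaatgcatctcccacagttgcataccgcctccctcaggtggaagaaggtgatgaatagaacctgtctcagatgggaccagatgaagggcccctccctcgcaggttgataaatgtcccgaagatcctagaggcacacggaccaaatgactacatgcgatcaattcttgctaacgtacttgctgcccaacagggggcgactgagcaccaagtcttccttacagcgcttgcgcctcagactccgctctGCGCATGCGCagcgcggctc
Ndufaf5, complex I assembly, NRF1 motif, chr2:140170396-140170695, plus strand: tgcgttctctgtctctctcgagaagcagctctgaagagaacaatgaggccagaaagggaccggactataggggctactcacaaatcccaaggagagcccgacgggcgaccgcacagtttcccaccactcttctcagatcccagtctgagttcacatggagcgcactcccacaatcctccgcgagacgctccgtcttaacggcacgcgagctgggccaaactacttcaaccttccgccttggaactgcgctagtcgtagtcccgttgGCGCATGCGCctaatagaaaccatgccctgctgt
Ndufs7, complex I core, YY1 motif, chr10:80249199-80249498, plus strand: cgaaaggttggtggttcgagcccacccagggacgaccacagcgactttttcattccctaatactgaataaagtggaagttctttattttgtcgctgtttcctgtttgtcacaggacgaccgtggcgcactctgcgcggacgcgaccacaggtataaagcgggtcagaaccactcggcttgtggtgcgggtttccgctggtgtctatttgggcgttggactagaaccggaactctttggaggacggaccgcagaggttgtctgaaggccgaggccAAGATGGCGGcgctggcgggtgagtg
Sdhd, complex II, ETS motif, chr9:50603800-50604099, minus strand: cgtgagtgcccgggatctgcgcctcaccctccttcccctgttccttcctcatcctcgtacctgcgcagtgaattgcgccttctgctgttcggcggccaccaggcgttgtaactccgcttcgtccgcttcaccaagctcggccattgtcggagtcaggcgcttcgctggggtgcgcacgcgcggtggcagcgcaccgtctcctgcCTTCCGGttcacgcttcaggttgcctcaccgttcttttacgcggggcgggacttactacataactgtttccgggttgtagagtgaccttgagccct
The match begins at base 281, 267, 275 and 205 of the respective window, counted from 1 at its 5' end, and the transcript start that the window was built on follows base 250. For Ndufs7 and Ndufaf5 that start lies inside the gene's RefSeq span, not at its first base.

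Basal cells gave the largest share of their transcripts to the nuclear-encoded chain in all 3 libraries. The 88 genes together took 3.79%, 3.40% and 3.41% of all UMIs of basal cells in the total epithelium library and the placode-enriched libraries 1 and 2. The shares were 3.33%, 2.98% and 2.86% in placode cells, 3.26%, 3.06% and 3.02% in edge cells, and 3.48%, 2.92% and 2.91% in suprabasal cells. The total epithelium library was the highest of the 3 in each class. When libraries are mixed, suprabasal cells (up to 3.48%) overlapped basal cells (from 3.40%), while placode and edge cells stayed below all basal values. Within each library basal cells stood above the other classes. The log2 ratio to the basal cells of the same library was -0.21 ± 0.04 for placode, -0.18 ± 0.03 for edge and -0.19 ± 0.06 for suprabasal cells (mean ± SD, n = 3 libraries). The smallest of the sums by depth, the edge cells of the total epithelium library, held 1515989 UMIs, and its 95% Poisson interval, which covers counting error only, ran from 32346.5 to 32922 CPM.

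The mitochondrial transcripts had another order. The 13 mt- genes took 2.84%, 3.09% and 3.00% of the UMIs of placode cells, 2.98%, 3.13% and 2.97% of edge cells, 2.75%, 2.89% and 2.75% of basal cells, and 2.54%, 2.83% and 2.71% of suprabasal cells. Their log2 ratio to basal cells was 0.09 ± 0.04 for placode and 0.11 ± 0.0046 for edge cells, above 0 in each library, and -0.06 ± 0.05 for suprabasal cells (mean ± SD, n = 3). The log2 ratio of nuclear-encoded to mt- transcripts therefore differed from that of basal cells by -0.30 ± 0.07 in placode and -0.30 ± 0.03 in edge cells. In suprabasal cells it differed by -0.13 ± 0.11, that is -0.0063 for total epithelium but -0.19 and -0.21 for the placode-enriched libraries. No deposited cell had more than 4.98% mt- UMIs, so cells with a larger share, if there were any, are absent from these sums. Whether cells were filtered on this share before deposit is not given in the sources used here. Such a filter would limit the mt- comparison between classes.

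**Figure D1:**
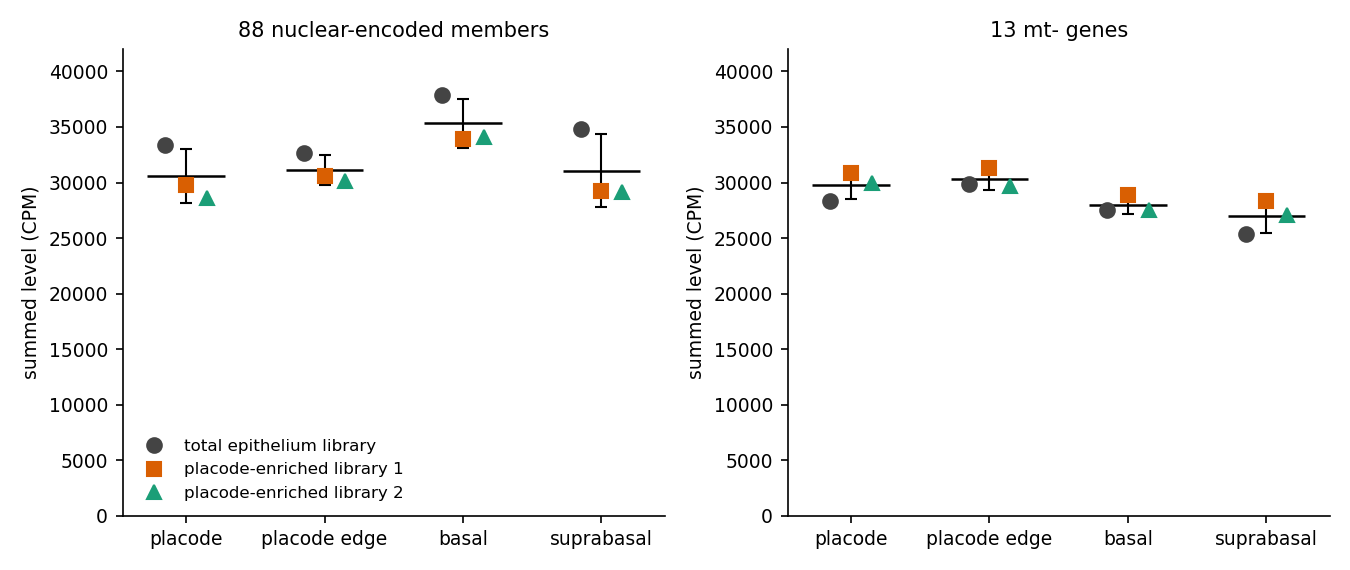
Summed level, in CPM, of the 88 nuclear-encoded genes (left) and the 13 mt- genes (right) in each cell class, one point per library, with lines and bars for the mean and SD of 3 libraries. Nuclear-encoded transcripts are highest in basal cells within each library, and mt- transcripts are higher in placode and edge cells than in basal cells.

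The same parting of the 2 genomes was seen inside complexes IV and V, and less so in I and III. In placode cells the 16 nuclear complex IV genes had a summed log2 ratio to basal cells of -0.17 ± 0.04, and mt-Co1, mt-Co2 and mt-Co3, the catalytic core of the same enzyme, of 0.13 ± 0.05 (n = 3 libraries). The 15 nuclear complex V genes gave -0.23 ± 0.04, and the 2 mitochondrial ATP synthase genes 0.11 ± 0.05. For complex I the 36 nuclear subunits gave -0.21 ± 0.03 and the 7 mt-Nd genes 0.03 ± 0.03, and for complex III the 8 nuclear genes gave -0.24 ± 0.05 and mt-Cytb 0.05 ± 0.08. Edge cells gave -0.16 to -0.21 for the nuclear sums and 0.04 to 0.17 for the mitochondrial sums of these 4 complexes. In suprabasal cells both sums of complex I lay below basal cells, at -0.15 ± 0.05 and -0.11 ± 0.02.

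**Figure D2:**
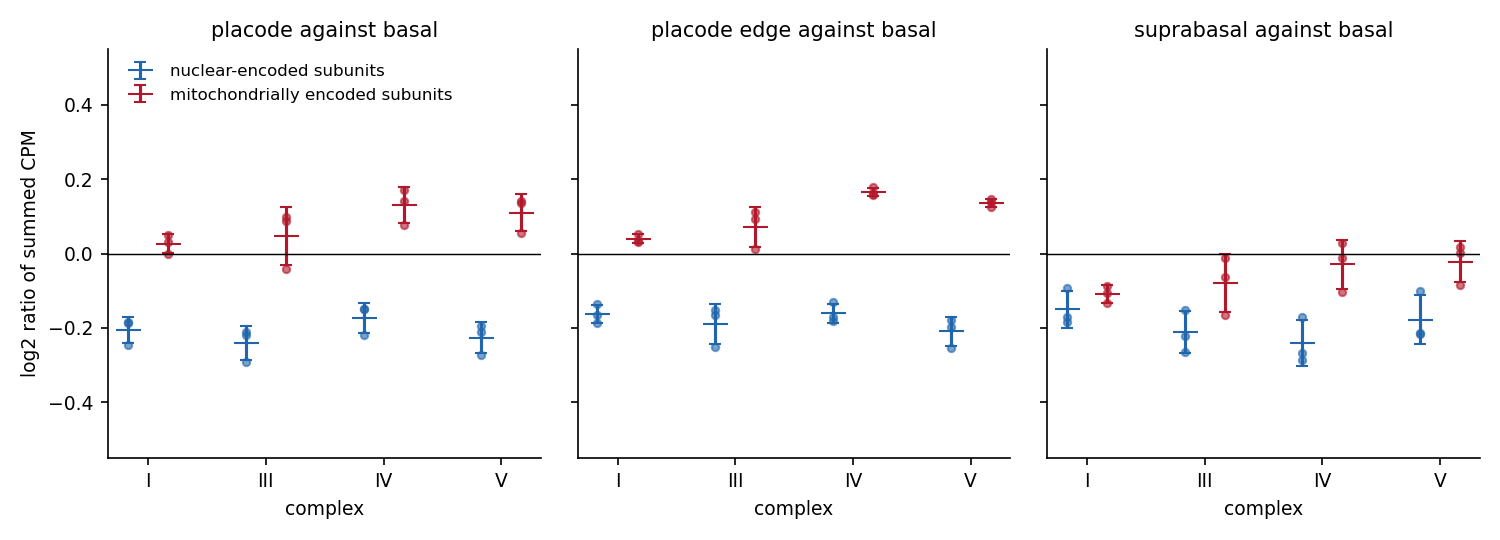
Log2 ratio of summed CPM to the basal cells of the same library for the nuclear-encoded and the mitochondrially encoded subunits of complexes I, III, IV and V, with points for 3 libraries and bars for the mean and SD. Nuclear and mitochondrial values lie on opposite sides of 0 for complexes IV and V in placode and edge cells.

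Single mt- genes were called by edgeR's quasi-likelihood test with the library as a block, at an adjusted p under 0.05. In placode cells mt-Co3 (log2 fold change 0.19, adjusted p = 1.8e-05), mt-Co1 (0.18, adjusted p = 5.3e-05), mt-Atp6 (0.13) and mt-Nd4 (0.09) were higher than in basal cells and 0 of the 13 were lower. In edge cells mt-Co3, mt-Co1 and mt-Atp6 were higher, by 0.16, 0.15 and 0.10. In suprabasal cells mt-Nd4l, mt-Nd5 and mt-Nd2 were lower, by -0.31, -0.29 and -0.26. Of all genes tested 17.8% were higher in placode and 13.9% in edge cells, and 16.8% were lower in suprabasal cells. So few mt- genes can be set only loosely against these shares. The fold change was below 0 for 3 of the 13 in placode, 6 in edge and 13 in suprabasal cells.

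The level of the nuclear-encoded genes also differed among the clusters of a class, given here as values with no test. In the total epithelium library the 3 large basal clusters stood at 37313 to 38601 CPM. The edge cluster with 6 of the 7 basal markers stood at 34264, 33175 and 32670 CPM in the 3 libraries, and the other edge clusters, of which the larger held 6 of the 9 placode markers, 1 short of the placode rule, between 27779 and 31710 CPM. Among placode clusters the one led by Shh stood at 30408, 28943 and 27909 CPM, and the one with the most mitotic transcripts at 29326, 28213 and 27343 CPM. The remaining placode clusters were higher, at 30619 to 35086 CPM, and 1 of them held most placode cells of the total epithelium library. Example pairs of clusters are given here with their summed transcripts of 52 G2 and M phase genes. The Shh-led placode cluster, with only 17 cells in the total epithelium library, and a basal cluster had 2788 and 3028 CPM of these there. They stood at 30408 against 38347 CPM of nuclear-encoded chain transcripts. A pair in that library with a smaller difference was a placode cluster of 13 cells and another basal cluster (7557 and 7957 CPM). It stood at 35086 against 38601 CPM. In placode-enriched library 1 the mitotic placode cluster and the mitotic basal cluster (15675 and 12815 CPM of G2 and M transcripts) stood at 28213 against 33586 CPM. These pairs were not matched for S phase genes or depth, and the part of the cell cycle was not tested.

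**Figure D3:**
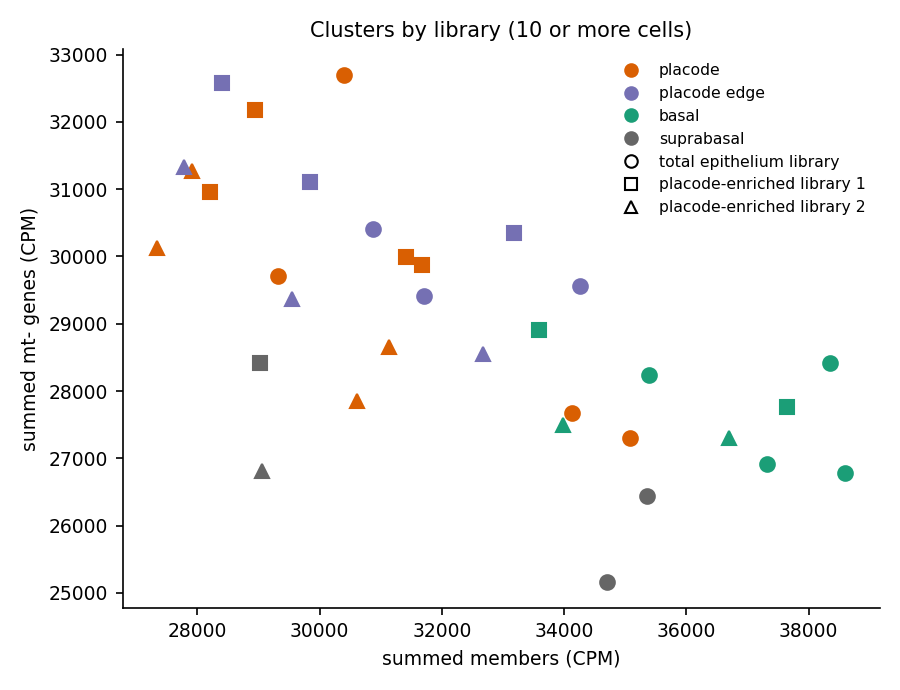
Summed nuclear-encoded (horizontal axis) and mt- (vertical axis) levels, in CPM, of each cluster with 10 or more cells in each library, coloured by class and shaped by library; both axes start above 0. Basal clusters lie to the right, most placode and edge clusters lie to the left and higher, and suprabasal clusters lie low.

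Most single genes moved with the sum in placode cells. Of the 88, all tested, 64 were lower in placode than in basal cells and 1 was higher, where 16.7% and 17.8% of the 5993 genes tested were lower and higher. Their median log2 fold change was -0.19, against 0.01 over the genes tested, and 75 of the 88 were lower in each of the 3 libraries, against 30.1% of the genes tested. The lower genes included 14 of 15 of complex V, 10 of 16 of complex IV, 5 of 8 of complex III, 4 of 4 of complex II, 23 of 29 accessory and 6 of 7 core subunits of complex I, and 2 of 7 assembly factors. The count of lower genes was 28 without placode-enriched library 1 (7.40% of all genes then lower) and 32 without library 2 (9.18%). It was 31 with DESeq2 (8.23%) and 39 with every cell thinned to 5000 UMIs (8.69%). With no library block it was 6, or about the 5.41% of all genes then lower. Of 8 fibroblast markers 6 were in both tables, and their sum was 1447 CPM in placode and 735 in basal cells, mostly from Dcn and Postn. Lum had a UMI in 9.26%, 6.61% and 4.98% of placode cells against 3.47%, 3.67% and 1.28% of basal cells in the 3 libraries, Col3a1 was at 4, 14 and 10 UMIs in the placode sums, and Col1a1 was at 0 in 2 of them. Of 52 G2 and M phase genes 27 were lower in placode than in basal cells and 0 higher. Among cells of low cycle-gene content the count of lower chain genes was 40 (7.18% of all genes then lower). That setting kept 44, 279 and 305 placode cells and 520, 28 and 24 basal cells in the 3 libraries. The part of the fibroblast markers in these counts was not tested.

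Most of the genes were also lower in edge cells against the same basal cells. Of 87 genes tested 61 were lower and 1 higher (14.0% and 13.9% of 6022 genes tested), with a median of -0.22 against 0.00. They included 13 genes of complex V, 10 of IV, 6 of III, 4 of II, 21 accessory and 6 core subunits of complex I and 1 assembly factor. Taken alone, the edge cluster with 6 basal markers had 13 lower genes (6.22% of all genes then lower) and the other edge clusters 68 (16.3%). The count fell to 37 (7.21%) and 24 (4.59%) without placode-enriched libraries 1 and 2. It was 17 with no library block, where 5.30% of all genes were lower. At clustering resolution 0.5, where a single cluster made up the edge class, it was 3, or about the 4.38% of all genes then lower. In edge cells 51 of 52 G2 and M phase genes were lower than in basal cells and 26 of 42 S phase genes higher. Among cells of low cycle-gene content the count of lower chain genes was 57 (7.14% of all genes then lower), with only 28 and 24 basal cells in the placode-enriched libraries. In the total epithelium library 2 edge cells held 86 Col1a1 UMIs, a fibroblast collagen that stood at 56.7 CPM there against 0.416 and 0.300 in the other edge sums; without that library 67 chain genes were lower.

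In suprabasal cells 43 genes were lower and 2 higher (16.8% and 15.8% of 5835 genes tested), with a median of -0.19 against -0.03. The lower genes included 11 of 16 of complex IV, 9 of complex V, 5 of complex III, 2 of complex II, 13 accessory and 2 core subunits of complex I and 1 assembly factor. This count was 21 and 10 without placode-enriched libraries 1 and 2, which held only 59 and 66 of these cells. The shares of all genes then lower were 13% and 10.2%, so the second count was near its share. The count of lower chain genes was 26 with DESeq2 (9.34% of all genes lower) and 20 after thinning (10.2%). Among cells of low cycle-gene content it was 19 (13.1%), with only 10 and 20 suprabasal cells in the placode-enriched libraries. At clustering resolution 2 it was 19, or about the 21.4% of all genes then lower. With no library block it was 9, or about the 9.0% of all genes then lower. The 5 periderm markers summed to 2282 CPM in suprabasal and 589 CPM in basal cells, mostly from Sfn, with Krt6a at or under 0.614 CPM in each of these sums. Ppl stood at 86.3, 92.7 and 81.5 CPM in suprabasal cells against 12.1, 7.91 and 7.77 CPM in basal cells. Krt23 stood at 2.70, 6.14 and 0 CPM against 0, 0.128 and 0, and Krt4 at 0.369, 0.614 and 1.47 against 0.586, 0.255 and 0.510. The 2 erythroid markers in both tables summed to 6.71 against 0.224 CPM; the part of these markers was not tested. Since the 3 comparisons share their basal cells, their counts are not independent.

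**Figure D4:**
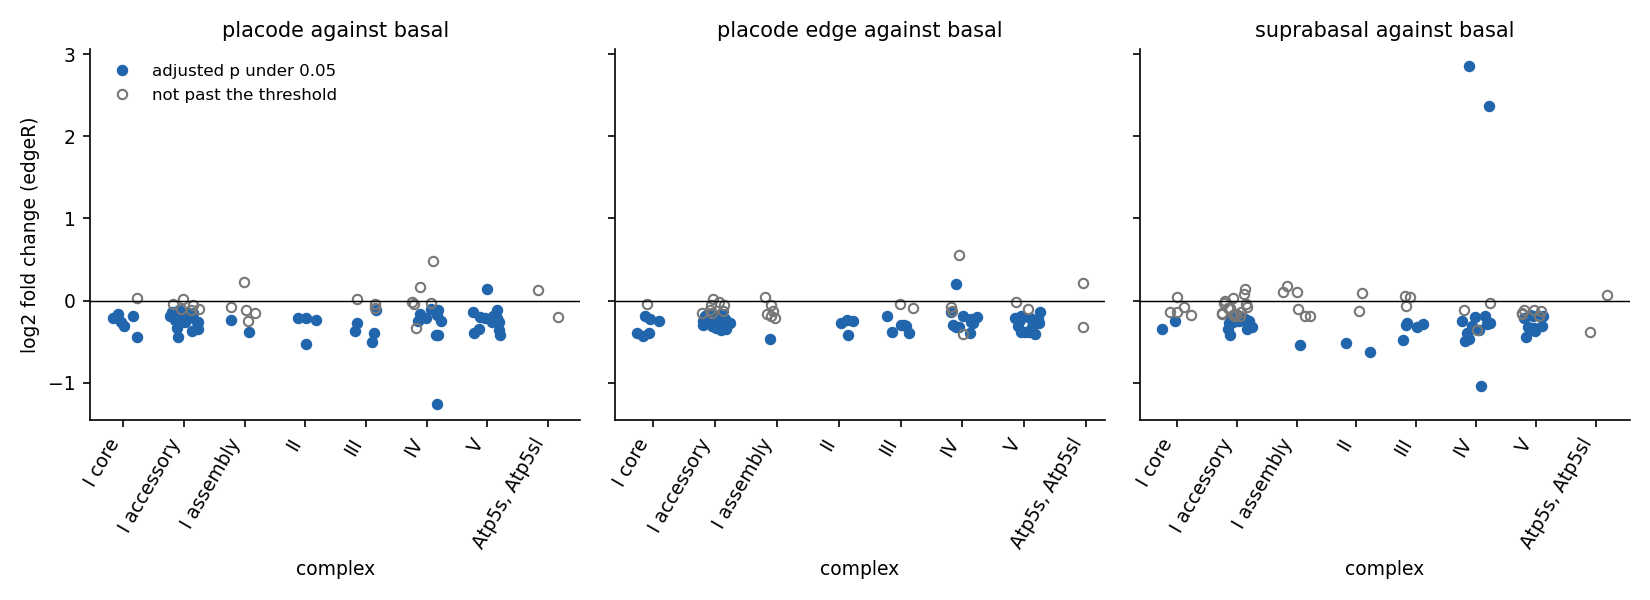
Log2 fold change against basal cells of each nuclear-encoded gene, by complex, in placode, edge and suprabasal cells; filled points passed an adjusted p of 0.05 in edgeR. Most points lie below 0 in each panel, and 2 complex IV genes stand far above 0 in suprabasal cells.

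All 4 genes of complex II were lower in placode and edge cells than in basal cells. Sdhd, its smaller membrane anchor (chromosome 9, 50596340 to 50603849), stood at 175, 165 and 145 CPM in the basal cells of the 3 libraries and at 125, 108 and 99.2 CPM in placode cells, with no overlap. Its log2 fold change was -0.53 ± 0.06 in placode (SE, adjusted p = 1.0e-05), -0.41 ± 0.06 in edge and -0.63 ± 0.10 in suprabasal cells. Sdhc, the other anchor, stood at 136, 138 and 128 CPM in basal and 108, 89.6 and 85.9 CPM in suprabasal cells, -0.52 ± 0.10. Sdha, the flavoprotein that oxidizes succinate, was lower in placode (-0.21 ± 0.06) and edge cells (-0.27 ± 0.06) and had 0.09 ± 0.07 in suprabasal cells (adjusted p = 0.42). Suprabasal cells thus had lower anchor transcripts with no call for Sdha or for the iron-sulfur subunit Sdhb (-0.13 ± 0.08).

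In complex I, Ndufs7, a core subunit that carries an iron-sulfur cluster (chromosome 10, 80249105 to 80256794), stood at 247, 210 and 213 CPM in basal cells, 199, 144 and 151 in placode cells and 189, 160 and 161 in edge cells. The groups did not overlap, and the changes were -0.44 ± 0.06 and -0.43 ± 0.05. Ndufa5, an accessory subunit, fell by 0.44 in placode and 0.35 in edge cells on the log2 scale. Ndufv1, the core subunit that binds NADH, and Ndufs1 were lower in edge cells by -0.40 ± 0.06 and -0.39 ± 0.08 and in placode cells by -0.27 ± 0.06 and -0.31 ± 0.07. Ndufaf5, an assembly factor that modifies Ndufs7, was at 15.2 to 19.4 CPM in placode and edge cells, 12.3 to 17.2 in suprabasal and 21.4 to 24.6 in basal cells, and was called lower in all 3 comparisons. The abundant accessory subunit Ndufa7 was called in none, with log2 fold changes of -0.04, -0.06 and -0.13, while Ndufa2 was lower in all, most in suprabasal cells (-0.42 ± 0.07).

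In complex III, Uqcrc1, a core protein of the complex (chromosome 9, 108936648 to 108949641), stood at 542, 401 and 372 CPM in basal cells and 386, 285 and 248 CPM in placode cells. The ranges overlap because of the library difference, yet placode cells were lower within each library, with a change of -0.50 ± 0.04 (adjusted p = 1.5e-06). Uqcr10 and Uqcr11, small subunits, were lower in all 3 comparisons by -0.30 to -0.40. Uqcrh, the hinge protein that lies by cytochrome c1, was called lower in suprabasal cells, at 596, 543 and 572 CPM against 793, 766 and 768 in basal cells (-0.48 ± 0.06), with -0.04 ± 0.04 in both other comparisons.

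In complex V, Atp5b, the catalytic beta subunit, stood at 1674, 1371 and 1241 CPM in basal cells and 1216, 1097 and 987 CPM in edge cells (-0.41 ± 0.04). It was lower in placode cells by -0.26 ± 0.03 and had -0.11 ± 0.07 in suprabasal cells (adjusted p = 0.23). Its partner in the catalytic ring, the alpha subunit Atp5a1, was the one gene called higher in placode cells, at 1082, 1175 and 1082 CPM against 1068, 1040 and 978, a change of 0.14 ± 0.03 (adjusted p = 0.0083). That call was lost without either placode-enriched library (adjusted p = 0.25 and 0.096), with DESeq2 (0.28) and with the other set of genes used to cluster (0.21). The 3 genes of the membrane ring subunit c, which encode the same mature protein, did not move alike. Atp5g1 was lower in placode cells by -0.42 ± 0.06 and had -0.12 ± 0.07 in suprabasal cells, whereas Atp5g2 was lower by -0.12 ± 0.03 and -0.30 ± 0.06. Atp5g3 was lower in all, by -0.36 to -0.45.

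Complex IV held the widest range, from genes with paired isoforms. Cox8a and Cox5b, small nuclear subunits, were among the largest falls in placode cells, both at -0.42 ± 0.04, with Cox8a at 931, 895 and 975 CPM in basal and 752, 655 and 663 CPM in placode cells. Cox4i1, the common form of subunit 4, had -0.04 ± 0.03 in placode cells (adjusted p = 0.36) and fell by 0.39 in suprabasal cells. Its rarer form Cox4i2, known for its induction by low oxygen, was at 5.11, 4.59 and 5.73 CPM in basal and 3.35, 2.05 and 1.82 CPM in placode cells, a change of -1.25 ± 0.25 that rests on 60 UMIs in placode cells and on an adjusted p of 0.051 without placode-enriched library 2. Cox6b2, described as the testis form of subunit 6b, stood at 58.5, 52.6 and 54.8 CPM in basal cells. In suprabasal cells it was at 28.8, 25.8 and 27.5 CPM, a change of -1.04 ± 0.11 with no overlap, while the common form Cox6b1 changed by -0.19 ± 0.06.

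Cox7a2l, a supercomplex assembly factor that links complexes III and IV (chromosome 17, 83501917 to 83514333), was the member whose calls had both signs. It stood at 502, 456 and 476 CPM in basal cells, 580, 559 and 553 in edge cells, 465, 547 and 564 in placode cells and 356, 340 and 349 in suprabasal cells. Edge cells lay above and suprabasal cells below basal cells with no overlap, at 0.20 ± 0.04 (adjusted p = 0.0064) and -0.50 ± 0.06 (adjusted p = 1.4e-04). Placode cells were lower in the total epithelium library and higher in the other libraries, and the change of 0.16 ± 0.06 missed the threshold (adjusted p = 0.053). The edge call was lost without placode-enriched library 1 or 2 (adjusted p = 0.084 and 0.081).

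The 2 genes called higher in suprabasal cells are isoforms of other members. Ndufa4l2 (chromosome 10, 127509274 to 127517154), a paralog of the complex IV subunit Ndufa4 known as a hypoxia target, stood at 73.5 CPM in the suprabasal cells of the total epithelium library, against 4.91 and 7.86 CPM in the placode-enriched libraries. Basal cells had 8.59, 2.04 and 1.02 CPM, so the ranges overlap across libraries, and the change within libraries was 2.85 ± 0.27 (adjusted p = 2.8e-05). In the placode-enriched libraries it rests on 8 and 16 suprabasal UMIs, and without the total epithelium library the change was 2.04 (adjusted p = 0.0036). In the total epithelium library the more differentiated suprabasal cluster, with 8435 CPM of the differentiation keratin Krt10, held 233.9 CPM of Ndufa4l2, and the other cluster, with 2616 CPM of Krt10, held 34.1 CPM; the former cluster had 1 cell in each placode-enriched library. Ndufa4 itself was lower, at 478, 500 and 458 CPM against 595, 690 and 661 CPM, -0.47 ± 0.07.

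Cox7a1, known as the heart and muscle form of subunit 7a, was at 5.53, 3.68 and 1.96 CPM in suprabasal cells (55 UMIs) against 0.880, 0.255 and 1.15 CPM in basal cells (32 UMIs), a change of 2.36 ± 0.48. The groups did not overlap, but the placode-enriched libraries gave 6 and 4 of the suprabasal UMIs, and without the total epithelium library the gene had too few counts to be tested. Of 7 muscle markers 3 were in both tables, and together they reached 0.450 ± 0.496 CPM in suprabasal cells against 0.761 in basal cells, with Myod1 and Tnnt1 at 0 in 2 of the 3 libraries each. Acta1 stood at 0.246, 0 and 0.491 CPM in suprabasal cells against 0.126, 0.128 and 0.127 CPM in basal cells. Each of these markers had at most 2 UMIs in a suprabasal sum, and their part was not tested. The broad form Cox7a2 was lower in suprabasal (-0.25 ± 0.07), placode (-0.17 ± 0.04) and edge cells (-0.32 ± 0.04).

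**Figure D5:**
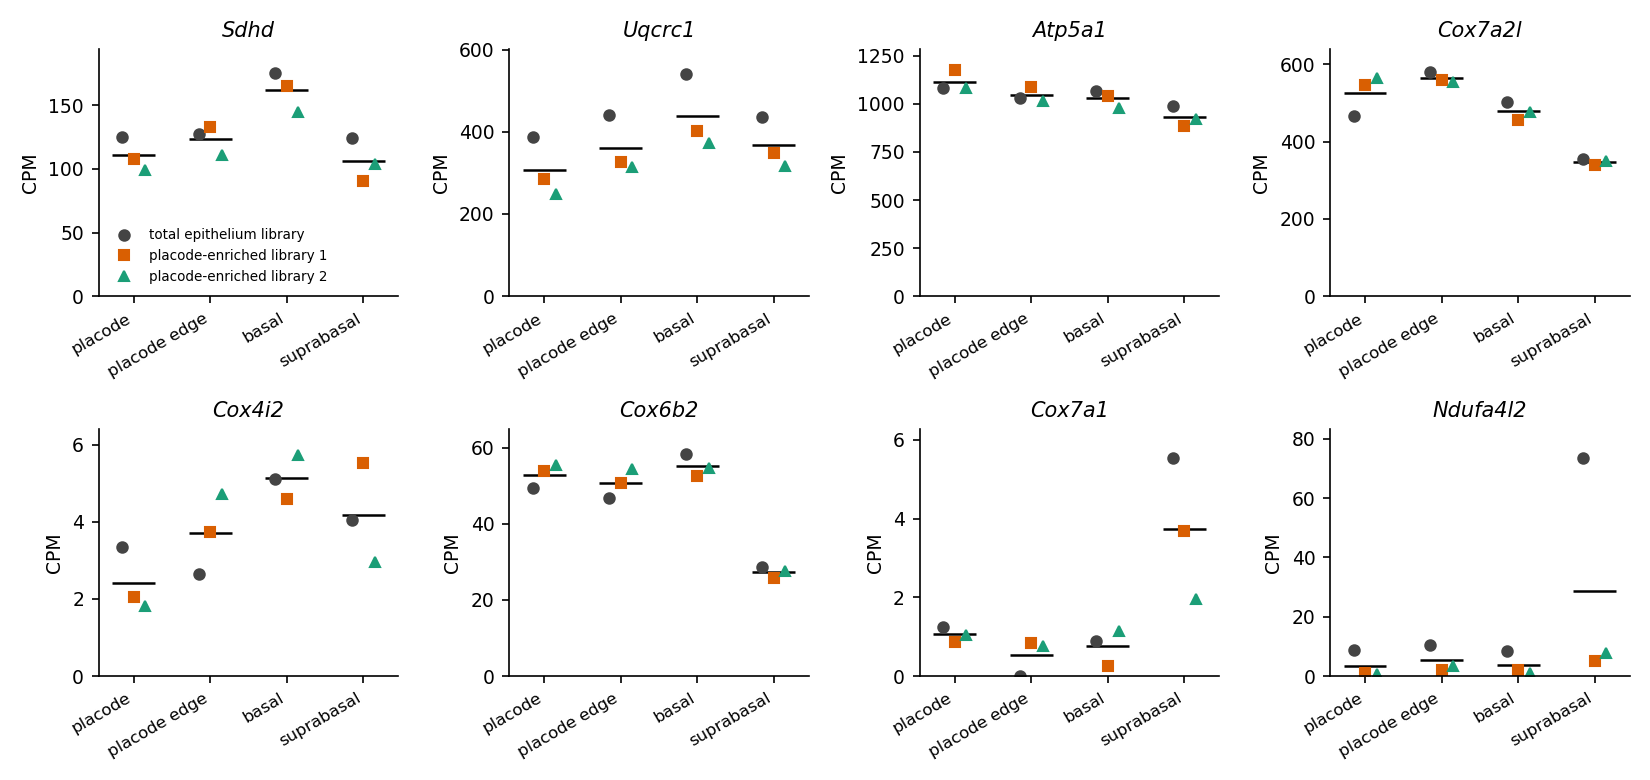
Level in CPM, on linear axes that start at 0, of 8 genes in each class, one point per library and a line for the mean. Sdhd and Uqcrc1 are highest in basal cells within each library, Cox6b2 and Cox7a2l are lowest in suprabasal cells, and the suprabasal cells of the total epithelium library stand far above the other sums for Ndufa4l2.

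Genes that work with the chain but lie outside the symbol rule were compared by lists. Of cytochrome c and cytochrome c1, Cyc1 was lower in all 3 comparisons (-0.42, -0.49 and -0.23 for placode, edge and suprabasal cells) and Cycs in edge cells. Of 17 genes of pyruvate dehydrogenase and the citric acid cycle, 8 were lower and 1 higher in placode cells, 12 and 1 in edge cells, and 5 and 1 in suprabasal cells. Among these Cs, citrate synthase, rose by 0.57 ± 0.08 in suprabasal cells and fell by 0.21 in edge cells. Of 76 tested mitochondrial ribosomal protein genes, which serve translation of the mt- transcripts, 18 were lower and 3 higher in placode, 29 and 0 in edge and 9 and 5 in suprabasal cells, against the shares of all genes given above. Of 103 tested cytosolic ribosomal protein genes 36 were higher and 6 lower in placode cells, 5 higher and 7 lower of 102 in edge cells, and 1 higher and 48 lower of 101 in suprabasal cells. For these lists, the shares of all genes higher and lower were 17.8% and 16.7% in placode, 13.9% and 14.0% in edge, and 15.8% and 16.8% in suprabasal cells. The edge counts of cytosolic ribosomal genes lay below both shares.

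Of 34 tested assembly factors outside the rule, 7 were lower and 1 higher in placode cells, 7 and 1 in edge cells, and 4 lower and 6 higher in suprabasal cells. So few genes can be set only loosely against the shares of all genes, 16.7% lower and 17.8% higher in placode, 14.0% and 13.9% in edge, and 16.8% and 15.8% in suprabasal cells; the lower counts are near them. Acad9, a complex I assembly factor and acyl-CoA dehydrogenase, rose by 1.22 ± 0.20 in suprabasal cells, and Cox20, which helps to fit a subunit of complex IV, fell by 0.95 there, 0.69 in edge and 0.39 in placode cells. Atpif1, the inhibitor of ATP synthase, fell by 0.55 in suprabasal cells and had -0.03 and -0.06 in placode and edge cells. Of 19 tested regulators of mitochondrial transcription and biogenesis, 4 were lower and 1 higher in placode, 4 and 0 in edge, and 2 and 0 in suprabasal cells, lower counts that are likewise near those shares. Ppargc1b, a coactivator of respiratory genes, was lower in placode (-1.42 ± 0.17), edge (-0.43 ± 0.12) and suprabasal cells (-1.34 ± 0.20), while Gabpb1, a GABP subunit, was higher in placode cells (0.55 ± 0.09), and Nrf1 had 0.13 ± 0.08 there (adjusted p = 0.25) and was lower in edge cells (-0.26 ± 0.08, adjusted p = 0.035).

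Over the 12 sums of 4 classes and 3 libraries, the genes whose log2 level ran most like the summed chain genes, out of 2649 ranked, were Park7 (Pearson r = 0.967), Mrpl33 (0.958), Tmem167 (0.955), Cbs (0.952) and Phb2 (0.934). The sums share libraries and basal reference, so these are given as a description. Cbs, which makes cystathionine from homocysteine, averaged 39.2 CPM in basal cells and 14.4, 17.7 and 13.6 CPM in placode, edge and suprabasal cells.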

How the data were processed

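Single cells of 3 libraries were analysed. The deposited values were raw UMI counts per gene and cell, whole numbers with no normalization, as their values show. Cell Ranger, Seurat and mm10 are named per the submitters' processing notes. Versions, the annotation and cell filters are not given in the sources used here. In their shared table, the placode-enriched libraries were told apart by the number that ends each barcode, taken as the library number. The tables held 14959 and 15900 genes, and the 14656 in both were used, so 1 gene that matches the symbol rule in 1 table was left out.

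Scrublet (scanpy 1.11.5; expected doublet rate 0.05) was run on each library. The 11, 4 and 4 cells called were removed; these are few, so doublets can remain. Leiden clusters were made with igraph 0.11.9 (resolution 1, 20 neighbours, 30 components of 1000 variable genes). The clustering used 7171 genes, an arbitrary subset that held no chain, mt-, ribosomal or list gene. Clusters were named from marker lists by thresholds set after the clusters were seen: 7 of 9 placode or 4 of 8 suprabasal markers at 25% of the highest cluster, 7 of 7 basal markers at 50%, or 3 of 6 edge markers at 25% with Sostdc1 at 50%. These rebuilt names may differ from the authors' own.

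UMIs were summed per library and class, since cells are not replicates. Classes were compared over 6 sums by the quasi-likelihood test of edgeR 4.0.16 in R 4.3.3, after filterByExpr and TMM scaling. The library was a block in the model, because both sums of a library come from the same cell pool. P-values were adjusted by Benjamini and Hochberg over all genes tested, with a threshold of 0.05, and the standard error is the fold change over the root of F. The series design calls the placode-enriched libraries biological replicates; the total epithelium has 1 library. The test was tested on simulated data. The genes described are, per comparison, up to 8 called genes with the largest change in the same direction in all 3 libraries, the 2 most abundant of each complex, and the isoform groups. Alike genes have a mean of 20 CPM or more. The set of genes and the lists were chosen with earlier results of these data known. Gene positions and promoters are RefSeq's on GRCm38.p6. A gene named by the rule for described genes is not reported here.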

Additional observations from a re-analysis of the deposited data

Results flagged for a closer look

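For 3 results the total epithelium library moved one way and both placode-enriched libraries the other by at least 0.1 on the log2 scale in each; smaller splits of this kind are not listed. These differences between the kinds of library were not tested. Each value is a log2 ratio of CPM to the basal cells of the same library, with 0.5 CPM added to both. Atp5sl in placode cells gave -0.43 for total epithelium and, for placode-enriched libraries 1 and 2, 0.361 and 0.123. Cox7a2l in placode cells gave -0.111, 0.263 and 0.245. Ndufaf4 in suprabasal cells gave -0.104, 0.233 and 0.395. Most placode cells of the total epithelium library came from another cluster than those of the placode-enriched libraries.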

How the results depend on the processing

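With no replicate block (both sums of a library come from the same cells, so the library is the pair) the lower and higher counts were 6 and 0 of 64 and 1 in placode, 17 and 0 of 61 and 1 in edge, and 9 and 1 of 43 and 2 in suprabasal cells. With DESeq2 they were 31 and 0 in placode cells, and 26 lower in suprabasal cells. With thinned cells they were 39 and 2 in placode, and 20 and 1 in suprabasal cells. With cells of low cycle-gene content they were 40 and 0 in placode, and 19 and 1 in suprabasal cells. Leaving out 1 library gave 28 to 68 lower and 0 to 3 higher in placode, 24 to 67 and 0 to 1 in edge, and 10 to 58 lower and 1 to 2 higher in suprabasal cells. At resolution 2 placode cells had 3 higher, and suprabasal cells 19 lower and 5 higher. At resolution 0.5, where the naming rule put other clusters in the edge class, edge cells had 3 lower and 0 higher. The other clustering genes gave 2 higher in edge and 1 in suprabasal cells, no filter gave 2 higher and all classes in 1 fit 0 higher in placode cells. Alternatives were also chosen after seeing the data: placode cells without 1 cluster (4 higher), edge cluster 5 alone (13 lower) and edge clusters 6 and 13.

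The summed log2 ratios to basal cells kept their direction in all but 1 case: at resolution 2 the ratio of chain to mt- genes in suprabasal cells was 0.0034. Chain genes gave -0.26 in placode cells of low cycle-gene content and also without the cluster (chain to mt-, -0.39). In edge cells they gave -0.066, -0.22, -0.23, -0.080 and -0.25 at resolution 0.5, at resolution 2, with low cycle-gene content, in cluster 5 and in clusters 6 and 13, and in suprabasal cells -0.10 at resolution 2. The mt- genes of edge cells gave 0.14 without ribosomal and mt- UMIs in the total, 0.14 with the other clustering genes, 0.068 at resolution 0.5, 0.080 with low cycle-gene content, 0.076 in cluster 5 and 0.14 in clusters 6 and 13, and those of suprabasal cells -0.11 with that total. Chain to mt- in edge cells gave -0.13, -0.33, -0.16 and -0.39 at resolution 0.5, at resolution 2, in cluster 5 and in clusters 6 and 13. The change of Ndufv2, edge against basal, turned to 0.024 at resolution 0.5 and 0.00551 in cluster 5. Over single genes described, 1831 values kept their call, 297 lost and 65 gained it, and 2 reversed. The cause of these changes was not tested.

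Over all genes tested the main counts of higher and lower genes (1064 and 999, 839 and 845, 924 and 983 in placode, edge and suprabasal cells) became 548 and 493, 470 and 462, and 660 and 545 with DESeq2, and 482 and 324, 479 and 319, and 571 and 525 with no replicate block. They became 449 and 421, 366 and 368, and 398 and 437 with thinned cells, and 393 and 367, 412 and 392, and 464 and 428 with low cycle-gene content. Without placode-enriched library 1 they were 534 and 448 in placode and 528 and 441 in edge cells, and without library 2 they were 643 and 552, 338 and 279, and 640 and 599. In edge cells they were 197 and 252 at resolution 0.5 and 286 and 354 in cluster 5.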

Other observations

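Some mitochondrial genes outside the chain also changed. Of 25 listed genes of mitochondrial import and the inner membrane, 12 were lower and 3 higher in placode cells. The lower and higher counts were 12 and 1 in edge, and 5 and 2 in suprabasal cells. Of all genes tested 16.7% and 17.8%, 14.0% and 13.9%, and 16.8% and 15.8% were lower and higher in these comparisons. The genes given next are examples from this list. Vdac3, a channel of the outer membrane, was higher in placode cells, at an average of 542 CPM against 189 CPM in basal cells, a log2 fold change of 1.54 ± 0.04 (SE; edgeR, adjusted p = 7.5e-11), and higher in edge cells by 0.40 ± 0.05. Its relative Vdac1 was lower in both, by -0.21 ± 0.05 and -0.18 ± 0.05, and higher in suprabasal cells by 0.46 ± 0.09. Chchd10, a protein of the intermembrane space, averaged 24.8, 37.6 and 33.0 CPM in placode, edge and suprabasal cells against 74.1 CPM in basal cells, with changes of -1.68 ± 0.10, -0.90 ± 0.11 and -1.17 ± 0.15. Its relative Chchd2 changed by 0.10 ± 0.03 in placode and by -0.20 ± 0.05 in suprabasal cells.

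The total epithelium library had more nuclear-encoded chain transcripts than the placode-enriched libraries within each class. The log2 ratios of placode-enriched libraries 1 and 2 to it were -0.16 and -0.15 in basal, -0.09 and -0.11 in edge, -0.16 and -0.22 in placode, and -0.25 and -0.26 in suprabasal cells. With 1 library against 2 this was not tested.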
